A study of Homo sapiens and Mus musculus with 92 samples.

Results

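Collagen chain genes were taken as the rows of both RNA-seq count tables whose symbol consists of COL, a number, the letter A and a number. This gave 44 genes of the 28103 in each table. The set was selected on the COL6A1 counts, which were higher after MLL1 knockdown, so the changes of the chains in the MLL1 knockdown experiment are described here without a test. The rule did not use their changes in the AF9 knockdown experiment, and these were tested. Earlier results of these data were known when the chains and tests were chosen.

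The study asked how MLL1 (KMT2A), a histone H3 lysine methyltransferase, and AF9 (MLLT3), a subunit of the super elongation complex and the DOT1L complex, control transcription in HEL cells. HEL is a human erythroleukemia cell line without an MLL1 rearrangement. Cells of all groups were transduced with a lentiviral shRNA plasmid, which was the TRC control in the control groups (labelled WT), MLL1 shRNA #1 in the MLL1 KD group or AF9 shRNA #1 in the AF9 KD group. The MLL1 experiment had 3 control and 3 MLL1 KD libraries, and the AF9 experiment had 2 control and 2 AF9 KD libraries of its own. The knocked-down cells were transduced populations and not clones, each knockdown rests on a single hairpin, and the labels do not say whether replicates were separate cultures, so the p-values measure only the spread between these libraries.

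Collagens are extracellular matrix proteins in which chains with repeated glycine triplets wind into a triple helix. The chains differ in what they build, from the cross-striated fibrils of bone, tendon and cartilage to the meshwork of basement membranes, beaded microfibrils, fibril-associated chains and membrane-bound forms. Fibroblasts and other stromal cells are known as the main producers, whereas blood cells are better known for carrying collagen receptors.

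The sequences of both hairpin targets, as listed for the study, are shown because a match to a collagen transcript would bear on any change of that chain.

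MLL1 shRNA #1: gcactgttaaacattccactt
AF9 shRNA #1: ttcaaagcctcacaaattaat

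Of these 21 bases, the longest run found in the transcripts of any of the 44 chains was 10 bases for either target. For COL6A1 it was 8 bases of the MLL1 target and 7 bases of the AF9 target, and for COL18A1 7 bases of either. The search was for exact runs, and their place in the target was not recorded. Whether a hairpin acted on a chain through a short match was not tested.

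Library totals ranged from 6966345 to 10380241 counts in the MLL1 experiment and from 12278989 to 14232408 in the AF9 experiment. KMT2A in the MLL1 KD libraries averaged 63.5% of its control level, and MLLT3 in the AF9 KD libraries 18.6%. In the MLL1 experiment, control replicate 1 and MLL1 KD replicate 1 deviated together from the other 4 libraries, and MLL1 KD replicate 3 held more reads of matrix and keratin genes than the others. All 13 erythroid markers had counts in every library. Of 10 fibroblast and stromal markers, TWIST1 and TCF21 had no count in any library, and most of the list's summed counts came from THY1 (1278 to 2781 counts in the MLL1 experiment), a surface protein that is not restricted to stroma.

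Few collagen chains were expressed. Levels are given as TPM, the abundance per length of merged exons scaled to a fixed library sum. With a mean TPM of 1 as the minimum, 9 of the 44 chains were expressed in the MLL1 experiment and 8 in the AF9 experiment. COL2A1, COL6A5, COL6A6, COL9A2, COL18A1 and COL25A1, 6 chains, passed in both, COL6A1, COL6A2 and COL15A1 in the MLL1 experiment alone, and COL4A5 and COL4A6 in the AF9 experiment alone. The other 33 chains passed in neither, and COL8A1, COL9A1, COL13A1 and COL16A1 had no read in any of the 10 libraries.

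The expressed chains came from every class except the anchoring fibril chain COL7A1, but with few members of each. They were 1 of 11 fibrillar chains (COL2A1), 1 of 10 fibril-associated chains (COL9A2), 1 of 4 transmembrane chains (COL25A1), both multiplexins (COL15A1 and COL18A1), 2 of 9 network-forming chains and 4 of 7 chains of the beaded filament class. In the MLL1-experiment controls, the order by mean TPM (± SD, n = 3) was COL9A2 (56.9 ± 10.0), COL18A1 (54.4 ± 12.1), COL6A1 (28.0 ± 3.98), COL2A1 (10.5 ± 0.95), COL25A1 (8.02 ± 0.843), COL6A5 (7.81 ± 0.906), COL15A1 (2.53 ± 0.771), COL6A6 (2.08 ± 0.224) and COL6A2 (1.19 ± 0.434). The ranges of COL9A2 and COL18A1 overlapped, as did those of COL25A1 and COL6A5 and those of COL15A1 and COL6A6, and the other neighbours in this order were apart in every control library.

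The AF9-experiment controls had another order. There COL2A1 led with 36.9 ± 0.766 TPM (SD, n = 2), followed by COL18A1 (26.4 ± 8.47), COL25A1 (17.9 ± 1.06) and COL9A2 (8.03 ± 1.58). COL6A5 (3.59 ± 0.407) and COL4A5 (3.16 ± 0.217) overlapped, and COL4A6 (1.6 ± 0.426) and COL6A6 (0.819 ± 0.479) were lowest. The tables were normalised separately, and experiment, culture and library preparation cannot be told apart between them, so these levels are set side by side and were not tested.

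**Figure D1:**
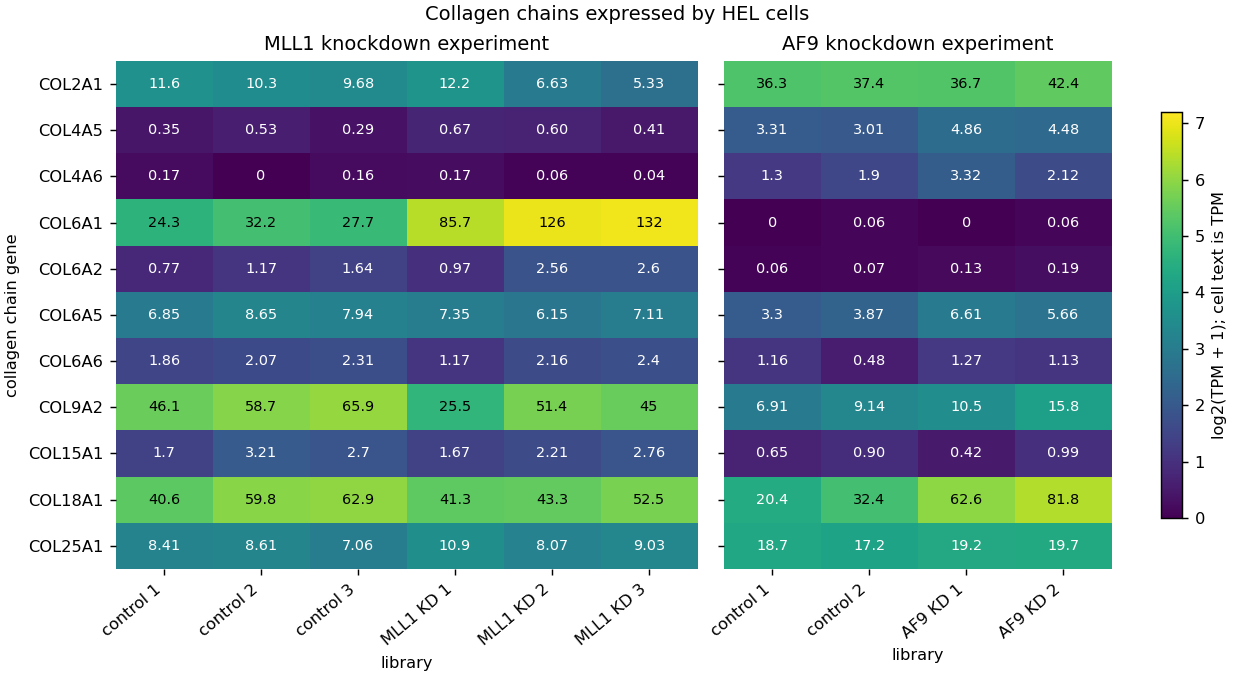
Level of the 11 collagen chains expressed in at least 1 experiment, as TPM printed in each cell and as colour on a log2(TPM + 1) scale, by library. COL6A1 ran from 24.3 to 32.2 TPM in the controls of the MLL1 experiment and from 85.7 to 132 TPM in its MLL1 KD libraries, and was at 0 or 0.06 TPM in the AF9 experiment.

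COL6A1 and COL6A2 encode chains that assemble with the COL6A3 product into collagen VI, the beaded microfibril collagen around muscle, cartilage and stromal cells. COL6A1 lies at chr21:45981770-46005050 (hg38, plus strand). Its counts were 262, 342 and 316 in the control libraries and 1192, 1282 and 1794 in the MLL1 KD libraries, or 24.3, 32.2 and 27.7 TPM against 85.7, 126 and 132 TPM. Each MLL1 KD library stood above each control library.

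The mean COL6A1 level was 28.0 ± 3.98 TPM (SD, n = 3) in controls and 115 ± 25.3 TPM (SD, n = 3) in MLL1 KD libraries, a log2 fold change of 2.02 (SE 0.22), or 4.06-fold. This change chose the gene set and carries no test here. Leaving out each library in turn gave log2 fold changes from 1.89 to 2.22, and replicates 2 and 3 alone gave 2.1. In RNA from whole cultures, more cells expressing a gene and more RNA per cell cannot be told apart.

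The partners of COL6A1 were near or under the limit of detection. COL6A2 had 8, 12 and 18 counts in controls and 13, 25 and 34 counts in MLL1 KD libraries, with overlapping groups and a log2 difference of 0.75 (SE 0.52). COL6A3 had 4, 1 and 0 counts in controls and 2, 0 and 9 in MLL1 KD libraries and was below the expression minimum. The COL6A1 level was 31.6, 27.5 and 16.9 times that of COL6A2 per length in the controls and 88.3, 49.4 and 50.8 times in the MLL1 KD libraries.

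COL6A5 and COL6A6 encode chains related to that of COL6A3 and sit next to each other on chromosome 3. COL6A5 in the MLL1 experiment had 6.85, 8.65 and 7.94 TPM in controls and 7.35, 6.15 and 7.11 TPM in MLL1 KD libraries, a log2 difference of -0.20 (SE 0.18). COL6A6 had 1.86, 2.07 and 2.31 TPM against 1.17, 2.16 and 2.40 TPM, a log2 difference of -0.13 (SE 0.35). Neither pair of groups was separated.

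**Figure D2:**
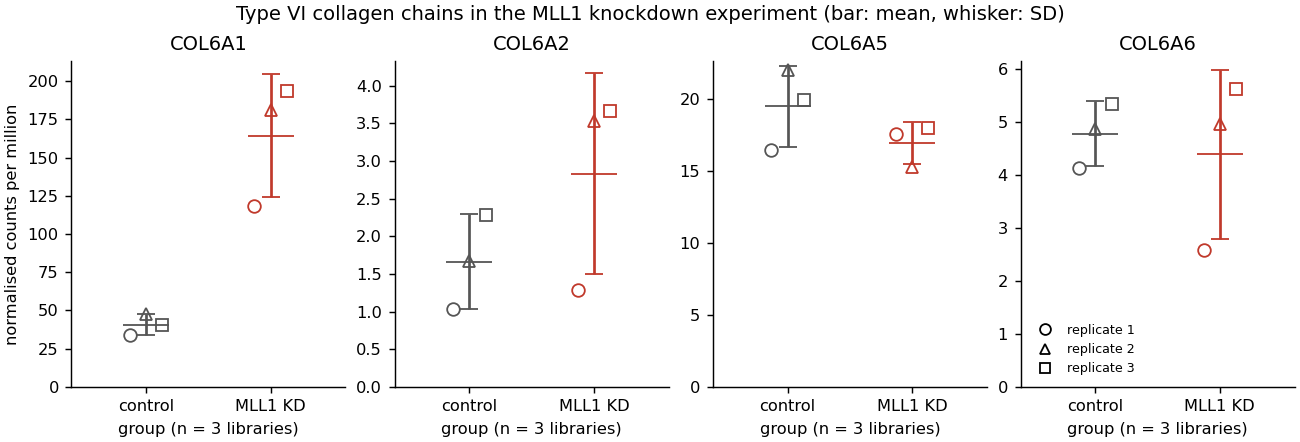
CPM (counts normalised to library size) of the 4 expressed chains of the type VI family in the MLL1 experiment, with control and MLL1 KD libraries on the x axis, 3 libraries a group, symbols for replicate numbers, and bars and whiskers for mean and SD. Only in the COL6A1 panel do the MLL1 KD libraries all lie above the controls.

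The other expressed chains of the MLL1 experiment had smaller differences, and in each of them the groups overlapped. Within same-numbered pairs of libraries, COL9A2 was lower in MLL1 KD in 3 of 3 pairs and COL6A2 higher in 3 of 3. The values do not tell replicates 2 and 3 from each other, and the share of all genes with 3 of 3 was not computed. COL9A2, a chain of the fibril-associated collagen IX of cartilage, had 46.1, 58.7 and 65.9 TPM in controls and 25.5, 51.4 and 45.0 TPM in MLL1 KD libraries (log2 -0.50, SE 0.28, and -0.54, SE 0.12, with the replicate number as a block). COL2A1, the fibrillar chain of cartilage, had 11.6, 10.3 and 9.68 TPM against 12.2, 6.63 and 5.33 TPM (log2 -0.40, SE 0.29, and -0.455, SE 0.187, with the block). In COL2A1, MLL1 KD replicate 1 was at the control level and the other MLL1 KD libraries were below each control, and replicates 2 and 3 alone gave -0.77.

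COL18A1 had 40.6, 59.8 and 62.9 TPM in the controls of the MLL1 experiment and 41.3, 43.3 and 52.5 TPM in the MLL1 KD libraries (log2 -0.27, SE 0.21, and -0.247, SE 0.097, with the block). COL15A1, the second multiplexin, had 1.70, 3.21 and 2.70 TPM against 1.67, 2.21 and 2.76 TPM (log2 -0.21, SE 0.36). COL25A1, a transmembrane collagen found in neurons, had 8.41, 8.61 and 7.06 TPM against 10.9, 8.07 and 9.03 TPM (log2 0.20, SE 0.18).

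Among the 9 expressed chains, 1 met the call rule in the MLL1 experiment (fold change of at least 1.5 and adjusted p under 0.05 in edgeR's quasi-likelihood test), beside 0.0694% of the 14408 genes tested, and nothing is read from that count since COL6A1 chose the set. In 1 of 9 chains the groups did not overlap, beside 17.7% of genes tested. The median log2 fold change was -0.20 over the 9 chains and 0.01 over all genes tested.

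The summed level of all 44 chains was 176 ± 26.9 TPM (SD, n = 3) in the MLL1-experiment controls and 239 ± 43.2 TPM in MLL1 KD libraries. Without COL6A1 it was 148 ± 23.6 and 125 ± 18.6 TPM. COL6A1 made up 14.4% to 16.9% of the summed level in control libraries and 44.9% to 49.8% in MLL1 KD libraries, where it was the leading chain in each library.

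In the AF9 experiment COL6A1 was not expressed. Its counts were 0 and 1 in controls and 0 and 1 in AF9 KD libraries, in libraries with more total counts than any of the MLL1 experiment. COL6A2 had 1, 1, 2 and 3 counts there, and COL6A3 had 0 in each library. HEL controls of the MLL1 experiment had 262 to 342 counts of COL6A1, so control cells of the same line expressed it in the MLL1 experiment and not in the AF9 experiment. Experiment and culture cannot be told apart in this difference.

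COL18A1 rose after AF9 knockdown. It encodes the core protein of collagen XVIII, a heparan sulfate proteoglycan of basement membranes whose C-terminal fragment is endostatin, and lies at chr21:45405165-45513720 (hg38, plus strand). It had 558 and 776 counts in controls and 1514 and 2005 counts in AF9 KD libraries, or 20.4 and 32.4 TPM against 62.6 and 81.8 TPM. Both AF9 KD libraries lay above both controls. The mean was 26.4 ± 8.47 TPM (SD, n = 2) against 72.2 ± 13.6 TPM (SD, n = 2), a log2 fold change of 1.34 (SE 0.17), with an edgeR adjusted p of 0.000154 over all genes tested.

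Fold changes in the AF9 experiment increased with the GC content of the gene, with a Spearman rho of 0.48 across 13061 genes, which share the same 4 libraries and are not independent. COL18A1 has exons of 66.8% GC. With offsets fitted to GC content its log2 fold change was 0.62 (edgeR adjusted p = 0.00109). Over all alternatives run the adjusted p lay between 9.6e-42 (edgeR with the replicate block) and 0.0037 (DESeq2). The lowest value rests on a block of only 2 pairs that share only a number, and its size is not read as strength of evidence. COL18A1 met the call rule in every alternative run, with log2 fold changes of 1.04 to 1.72 when each library was left out.

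COL18A1 has a pair of start sites in the RefSeq table, and the gene counts do not separate them. The 250 bases before each are shown because the gene responded and because the starts differ in CG content, with each CG dinucleotide in capitals (GRCh38.p14, plus strand).

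COL18A1 outer start, chr21:45404915-45405164: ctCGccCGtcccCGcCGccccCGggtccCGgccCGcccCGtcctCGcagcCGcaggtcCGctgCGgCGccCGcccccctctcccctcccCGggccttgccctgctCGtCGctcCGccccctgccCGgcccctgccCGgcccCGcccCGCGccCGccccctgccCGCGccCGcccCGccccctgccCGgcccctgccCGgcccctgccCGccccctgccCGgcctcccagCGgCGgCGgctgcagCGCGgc
COL18A1 inner start, chr21:45455272-45455521: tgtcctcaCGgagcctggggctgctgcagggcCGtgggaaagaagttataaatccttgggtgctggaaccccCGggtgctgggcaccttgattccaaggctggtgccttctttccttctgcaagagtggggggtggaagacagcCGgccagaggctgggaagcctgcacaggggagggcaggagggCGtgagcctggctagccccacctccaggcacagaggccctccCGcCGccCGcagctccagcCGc

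The window of 250 bases before and 50 after the start held 46 CG at the outer start, a number that 2.89% of the 35116 promoters in the table reach, and 10 CG at the inner start, which 56.4% reach. The search was for the letters CG, which read the same on both strands. Which start was used was not measured here.

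The exons of COL18A1 overlap those of SLC19A1, the reduced folate carrier on the opposite strand, by 1563 bases, or 18.5% of the COL18A1 exon length. The study counted reads by strand. SLC19A1 had 293 and 325 counts in controls and 753 and 721 in AF9 KD libraries and also rose (log2 1.21, SE 0.13, edgeR adjusted p = 5.29e-05). No other expressed chain shared exon positions with another gene of the tables.

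COL6A5 also rose after AF9 knockdown. It had 3.30 and 3.87 TPM in controls and 6.61 and 5.66 TPM in AF9 KD libraries, and its groups did not overlap. The log2 fold change was 0.67 (SE 0.18, edgeR adjusted p = 0.0144). By DESeq2 the adjusted p was 0.0498, at the edge of the call rule. The call was lost without control replicate 1 (log2 0.55) and without AF9 KD replicate 1 (log2 0.54), and it held with GC content offsets (log2 0.78). COL6A6, its neighbour, had 1.16 and 0.48 TPM against 1.27 and 1.13 TPM (log2 0.42, SE 0.39, edgeR adjusted p = 0.455).

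COL9A2 was at the edge of the call rule. It had 6.91 and 9.14 TPM in controls and 10.5 and 15.8 TPM in AF9 KD libraries, a log2 fold change of 0.61 (SE 0.22, edgeR adjusted p = 0.0493). With GC content offsets the log2 value was 0.04 (edgeR adjusted p = 0.893). Over all alternatives run the edgeR adjusted p lay between 0.0017 (replicate block) and 0.911 (block with GC content offsets). The exons of COL9A2 have 63.6% GC.

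COL4A5 and COL4A6 encode basement membrane chains of collagen IV and start 380 bases apart on opposite strands of chromosome X. COL4A5 had 127 and 101 counts in controls and 165 and 154 counts in AF9 KD libraries, or 3.31 and 3.01 TPM against 4.86 and 4.48 TPM (log2 0.45, SE 0.17, edgeR adjusted p = 0.0628). COL4A6 had 39 and 50 counts against 88 and 57 counts, or 1.30 and 1.90 TPM against 3.32 and 2.12 TPM (log2 0.66, SE 0.29, edgeR adjusted p = 0.103). Neither met the rule in the reported fit, although both AF9 KD libraries lay above both controls in each gene. With GC content offsets COL4A5 had a log2 value of 0.56 (edgeR adjusted p = 0.0158), under the fold threshold. COL4A6 had 0.63 with the offsets (edgeR adjusted p = 0.121).

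This pair had 7 to 20 counts (COL4A5) and 0 to 4 counts (COL4A6) in the MLL1 experiment. The other collagen IV pairs also start close together, COL4A1 and COL4A2 127 bases apart and COL4A3 and COL4A4 419 bases apart. They had at most 13 counts and 1 count in any library. The 250 bases before the start of COL4A5 and before the nearer start of COL4A6 are shown as the shared stretch of the expressed pair, with CG in capitals (GRCh38.p14, each on its own strand).

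COL4A5, plus strand, chrX:108439588-108439837: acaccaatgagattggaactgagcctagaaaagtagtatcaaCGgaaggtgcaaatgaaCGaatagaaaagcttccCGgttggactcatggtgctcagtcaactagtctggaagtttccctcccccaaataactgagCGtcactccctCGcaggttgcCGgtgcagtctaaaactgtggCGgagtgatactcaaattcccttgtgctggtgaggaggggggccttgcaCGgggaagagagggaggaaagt
COL4A6, minus strand, chrX:108439459-108439708: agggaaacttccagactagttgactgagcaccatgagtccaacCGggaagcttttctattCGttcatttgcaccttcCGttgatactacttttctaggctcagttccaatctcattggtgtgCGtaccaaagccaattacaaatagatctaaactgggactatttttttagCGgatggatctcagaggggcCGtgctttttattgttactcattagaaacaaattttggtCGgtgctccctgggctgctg

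These windows held 8 and 7 CG in 300 bases, numbers that 60.7% and 63.2% of promoters reach. The little expressed pair COL4A1 and COL4A2 had 45 CG each, which 3.48% reach. The promoter table held 32 of the 44 chains, and COL6A1 was not among them. Over its entries the median was 26.5 CG for the expressed chains (10 entries), 16.5 for the other chains (34 entries) and 14 for all promoters.

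The remaining expressed chains did not meet the rule in the AF9 experiment. COL2A1, the leading chain of the controls, had 36.3 and 37.4 TPM in controls and 36.7 and 42.4 TPM in AF9 KD libraries (log2 -0.01, SE 0.11, edgeR adjusted p = 0.968). With GC content offsets its log2 value was -0.40 (edgeR adjusted p = 0.00528, between 0.000339 and 0.985 over its alternatives), under the fold threshold, and with total counts it was 0.08. COL25A1 had 18.7 and 17.2 TPM against 19.2 and 19.7 TPM (log2 0.01, SE 0.12, edgeR adjusted p = 0.961). COL15A1, below the minimum, had 14 and 17 counts against 8 and 19.

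In all, 3 of 8 expressed chains were higher in AF9 KD by the call rule and 0 lower (0 also by DESeq2 and at an unadjusted edgeR p under 0.05), beside 8.01% of the 13350 genes tested called higher and 5.06% called lower. With GC content offsets the count was 2 of 8, beside 3.69% of genes called higher. Groups did not overlap for 5 of 8 chains, each higher in AF9 KD, beside 32.9% of genes tested. COL6A6 passed the expression minimum only through the AF9 KD libraries (0.819 TPM in controls), and 7 chains passed on the controls alone, with the same 3 called, beside 7.72% of all genes that passed on the controls. The median log2 fold change was 0.53 over the 8 chains, 0.61 over those 7 and 0.01 over all genes tested. The summed level of the 44 chains was 102 ± 10.2 TPM (SD, n = 2) in controls and 164 ± 20.5 TPM in AF9 KD libraries, and COL18A1 went from 21.6% and 29.7% of it to 42.0% and 45.9%.

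**Figure D3:**
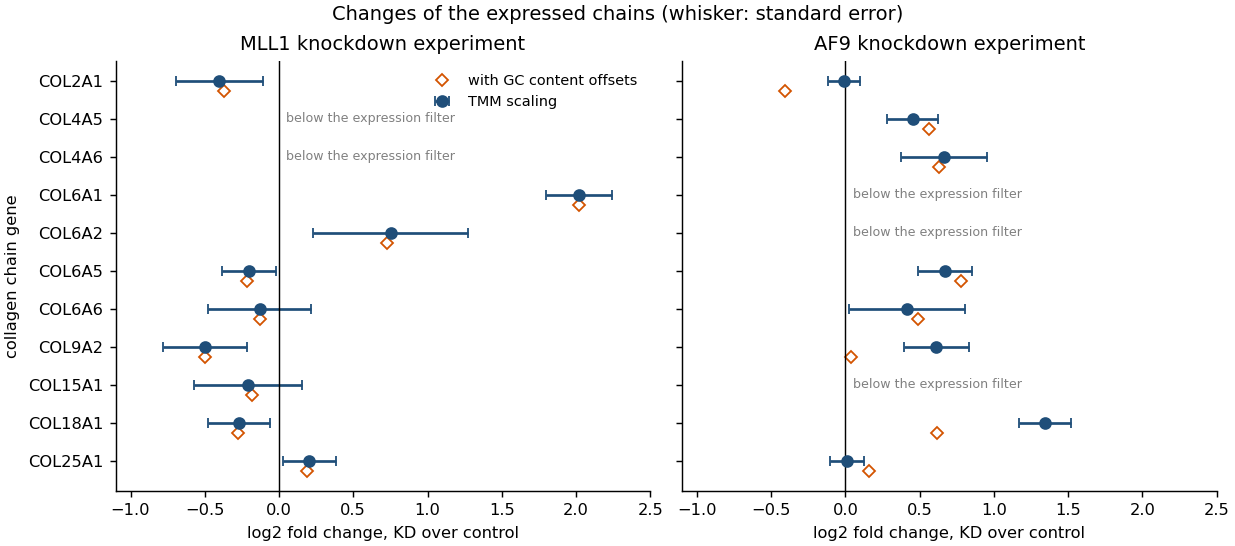
Log2 fold change of each expressed chain, knockdown over control, in the MLL1 experiment (3 against 3 libraries) and the AF9 experiment (2 against 2 libraries), with standard errors as whiskers and open diamonds for the values with GC content offsets. COL6A1 stands at 2.02 in the MLL1 experiment, and COL18A1 moves from 1.34 to 0.62 with the offsets in the AF9 experiment.

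Chains of stromal collagens were near 0 in all libraries but 1. COL1A1 and COL1A2, the chains of the main fibrillar collagen of skin and bone, had 83 and 66 counts in MLL1 KD replicate 3, and at most 9 and 4 counts in the other libraries of that experiment. COL3A1, which accompanies collagen I in soft tissue, had 47 counts there and 0 to 12 elsewhere. COL5A1 had 11 counts and COL12A1 13 counts there, against at most 1 and 2. In CPM, counts normalised to library size, COL1A1, COL1A2 and COL3A1 were 7.82, 14.0 and 4.25 times the highest other library. Of 21 chains below the minimum with more than 3 counts in some library of the MLL1 experiment, 13 were highest in this library. The share over all low-count genes was not computed. This library also had the most genes with a count, 17325 against 16716 to 16927 in the others of that experiment, so the 13 cannot be read as particular to collagen chains.

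Other matrix genes and keratins stood out in the same library. POSTN had 15 counts (others 0 or 1), FN1 21 (others 0 to 2), DCN 5 and LUM 4 (others 0 or 1). A list of 12 squamous epithelial genes, chosen after the values were seen, had 114 counts with all 12 detected there, against 5 to 11 counts in the other 5 libraries. TWIST1 and TCF21 were at 0 there as well. THY1 and PDGFRB, also on the fibroblast and stromal list, were 0.676 and 0.618 times the highest other library. The whole list summed to 209 CPM there, against 203 to 292 in the other libraries of that experiment. The part of the matrix and keratin reads of this library in the results was not tested. COL6A1 in this library was 1.07 times the highest other library, COL6A2 1.04 times and COL18A1 0.841 times. Without it the COL6A1 log2 fold change was 1.89, the lowest of the values with a library left out.

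**Figure D4:**
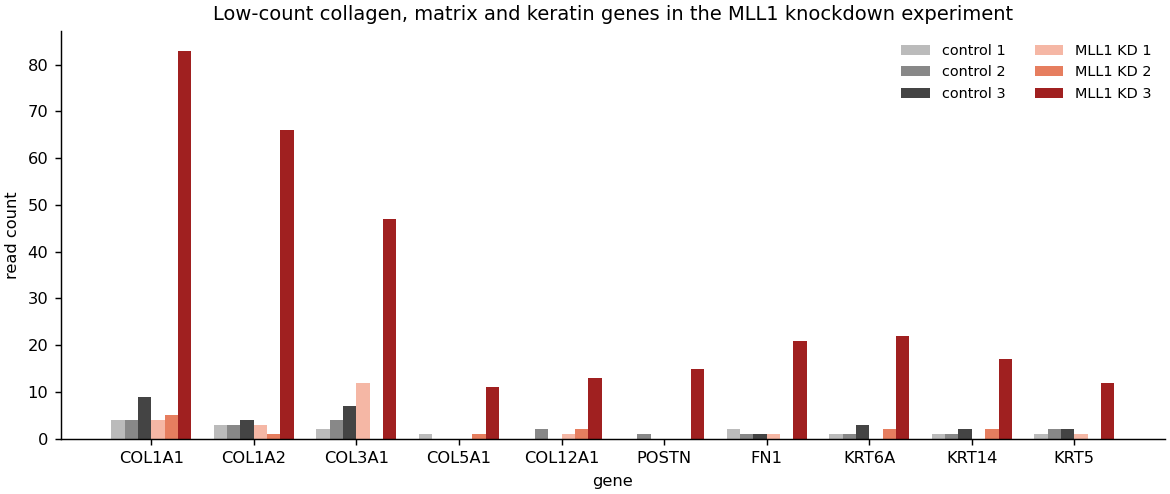
Read counts of 5 collagen chains below the expression minimum, POSTN, FN1 and 3 keratins in the 6 libraries of the MLL1 experiment, 1 bar per library. MLL1 KD replicate 3 has the highest bar for each gene, with 83 counts for COL1A1 and 22 for KRT6A.

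The remaining chains stayed at low counts. COL7A1, the anchoring fibril chain of skin, had 4 to 9 counts in the MLL1 experiment and 10, 16, 13 and 29 counts in the AF9 experiment, the largest count of an unexpressed chain there. COL5A2 had 6 to 18 and 13 to 22 counts, COL19A1 0 to 10 and 10 to 13 counts, and COL11A2 2 to 5 and 7 to 16 counts. In all, 14 chains of the MLL1 experiment and 28 of the AF9 experiment had at most 3 counts in every library, where a change was not detectable at this depth.

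The enzymes that modify collagen chains were mostly expressed, 12 of 15 in the MLL1 experiment and 13 of 15 in the AF9 experiment. P4HA1, the catalytic subunit of a prolyl hydroxylase that stabilises the triple helix, fell after AF9 knockdown from 386 and 364 to 201 and 181 CPM (log2 -0.97, SE 0.10, edgeR adjusted p = 2.64e-05), and was the 1 gene of 13 called, beside 13.1% of all genes called in either direction. The counts called on the other lists below read against the same share. P3H3, a prolyl 3-hydroxylase family member, had 5.03, 2.92 and 3.94 CPM in controls of the MLL1 experiment and 12.8, 8.78 and 11.3 in MLL1 KD libraries (log2 1.47, SE 0.28). No gene of any collagen-related list met the rule in the MLL1 experiment by edgeR without a block, against 14 of 63 at an unadjusted p under 0.05 (9.97% of all genes) and 2 of 63 by DESeq2, P3H3 and SEC24D (1.61% of all genes). With the replicate number as a block 3 of 63, P3H3, FKBP7 and SEC24D, met it, beside 4.74% of all genes.

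Of 14 folding and export factors, all were expressed in both experiments. SEC24D, a COPII coat subunit used in procollagen export, fell after AF9 knockdown from 196 and 187 to 106 and 123 CPM (log2 -0.74, SE 0.10, edgeR adjusted p = 0.000217). It had 79.0, 99.2 and 101 CPM in controls against 65.5, 50.7 and 58.2 in the MLL1 experiment (log2 -0.68, SE 0.16). SERPINH1, the collagen chaperone HSP47, had a log2 difference of 0.20 (SE 0.10) in AF9 KD and -0.39 (SE 0.17) in MLL1 KD. HSPA5, a general chaperone of the endoplasmic reticulum, had 554 CPM in MLL1 KD replicate 1 and 66.0 to 182 in the other libraries of that experiment.

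Among procollagen processing and cross-linking enzymes, 8 of 13 were expressed in the MLL1 experiment and 7 in the AF9 experiment. LOX, the lysyl oxidase that cross-links collagen, fell after AF9 knockdown from 6.39 and 5.37 to 2.47 and 3.51 CPM (log2 -0.97, SE 0.26, edgeR adjusted p = 0.0133). Of the receptors, 8 of 12 were expressed in the MLL1 experiment and 5 in the AF9 experiment. ITGA11, an integrin subunit for fibrillar collagen, rose (log2 0.71, SE 0.20, edgeR adjusted p = 0.0180) and ITGA2, the platelet-type collagen integrin subunit, fell (log2 -0.66, SE 0.21, edgeR adjusted p = 0.0272). ITGA2 no longer met the rule with GC content offsets (log2 -0.49). The discoidin receptor genes DDR1 and DDR2 were below the minimum in both experiments. Of the degradation list, 8 of 12 and 7 of 12 were expressed, and CTSK, the collagen-cleaving cathepsin K, fell after AF9 knockdown (log2 -1.01, SE 0.22, edgeR adjusted p = 0.00469).

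Some basement membrane partners of collagen XVIII were also called in the AF9 experiment. Of 17 laminins and partners, 8 were expressed there, of which AGRN, HSPG2 and LAMA5 rose and 0 fell by the rule, 3 of 8 beside 8.01% of all genes called higher. The count was 2 of 8 with GC content offsets, beside 3.69% of genes. LAMB1, LAMB2, LAMC1 and NID1 did not meet the rule, and SPARC, a matrix glycoprotein that binds collagen, was lower in both AF9 KD libraries (log2 -0.40, SE 0.09, edgeR adjusted p = 0.0065) but under the fold threshold. At an unadjusted edgeR p under 0.05, 1 of the 8 was lower, and DESeq2 called 0 lower. AGRN (agrin) had 1.16 and 1.51 CPM in controls and 3.02 and 7.48 in AF9 KD libraries (log2 1.98, SE 0.42, edgeR adjusted p = 0.00349). It passed the expression minimum only through the AF9 KD libraries (0.526 TPM in controls), so it could enter only if higher there, and with the minimum on the controls alone, applied to this list after its values were seen, 2 of 7 partners were called (7.72% of genes). Its log2 value ran from 1.18 to 2.49 with each library left out. HSPG2 (perlecan) had 369 and 460 against 674 and 929 (log2 0.95, SE 0.14, edgeR adjusted p = 0.000428). Agrin and perlecan are, like collagen XVIII, heparan sulfate proteoglycans of basement membranes.

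LAMA5, a laminin alpha chain, had 20.8 and 33.8 CPM in controls and 47.9 and 85.8 in AF9 KD libraries (log2 1.30, SE 0.24, edgeR adjusted p = 0.00145). AGRN, HSPG2 and LAMA5 have exons of 65.8%, 63.5% and 65.7% GC. With GC content offsets their log2 fold changes were 1.28, 0.39 and 0.62, and HSPG2 no longer met the rule. In the MLL1 experiment, where 10 of the 17 were expressed, the same genes had log2 differences of -0.47 (SE 0.28), -0.43 (SE 0.09) and 0.04 (SE 0.16), and HSPG2 was lower in each MLL1 KD library (652 to 680 CPM) than in each control (886 to 901).

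Of 15 genes with a collagen-like domain outside the COL naming, 3 were expressed in either experiment. SCARA3, a scavenger receptor family member, rose after AF9 knockdown (log2 0.62, SE 0.14, edgeR adjusted p = 0.00504) and did not meet the rule with GC content offsets (log2 0.30).

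COL6A1, COL6A2 and COL18A1 lie within 1 Mb of each other on chromosome 21. Within 1000 kb of COL6A1, 16 genes other than collagen chains were expressed in the MLL1 experiment. None of them met the call rule by edgeR without a block (0.0694% of all genes), 3 had an unadjusted p under 0.05 (9.97% of all genes) and DESeq2 called LINC01694 (1.61% of all genes). Their log2 fold changes ran from -0.34 to 1.52 with a median of -0.04. LINC01694, a noncoding RNA gene 379 kb before COL6A1 and named after its values were seen, had 55, 52 and 26 counts in controls and 217, 100 and 135 counts in MLL1 KD libraries (log2 1.52, SE 0.34). It met the rule with the block, 1 of 16 beside 4.74% of all genes. In the AF9 experiment 15 neighbours were expressed, with collagen chains such as COL18A1 again left out. Of these, SLC19A1 and YBEY rose, 2 of 15, beside 8.01% of all genes called higher.

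**Figure D5:**
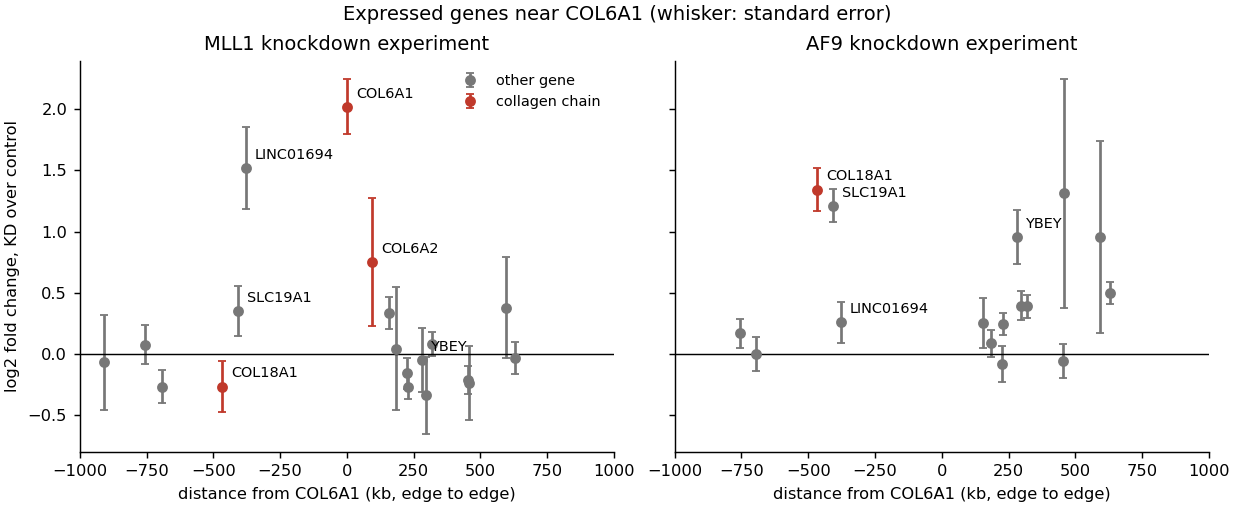
Log2 fold change with standard error of the expressed genes within 1000 kb of COL6A1, by edge-to-edge distance in kb, collagen chains in red. In the MLL1 experiment COL6A1 (2.02) and LINC01694 (1.52) stand above the rest, and in the AF9 experiment COL18A1 (1.34) and its overlapping neighbour SLC19A1 (1.21) lie side by side.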

How the data were processed

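RNA-seq libraries of HEL cells, 3 control and 3 MLL1 KD and, in a separate experiment, 2 control and 2 AF9 KD, were analysed as 10 of the 92 samples of the series. The other samples were not analysed here. The deposited tables hold raw gene counts. According to the submitters' processing notes and the study's methods, the authors trimmed strand-specific polyA reads with fastp (0.13.1), mapped them to hg38 with HISAT2 (2.1.0) and counted them per gene by strand with featureCounts (1.6.1). The annotation behind the symbols is not given in the sources used here. At most 2.06% of the 31-base words of any chain's canonical transcript occur in another gene.

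Symbols were matched to GENCODE (release 44, hg38), 92.4% of 28103, for coordinates, merged exon length and GC content. Levels are TPM from these lengths or CPM with TMM scaling. A gene entered the test of a table when its TPM averaged 1 or more. A gene without a matched length entered at a mean CPM of 1 or more. The test was edgeR's quasi-likelihood test (edgeR 4.0.16, R 4.3.3). P-values were adjusted by Benjamini-Hochberg over all genes tested, and calls were made at an adjusted p under 0.05 with 1.5-fold or more. The standard error is the log2 fold change divided by the square root of F. The fits were tested on simulated data. Alternatives were DESeq2 (1.42.0), other scalings, filters and thresholds, a replicate block, GC content offsets and leaving out libraries.

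In the MLL1 table same-numbered libraries deviated together (correlations of deviations from the group means 0.647, 0.325 and 0.351), and the numbers from the labels were taken to pair the libraries. Control 2 with MLL1 KD 3 and control 3 with MLL1 KD 2 correlated as closely (0.368 and 0.359), so the values set replicate 1 apart and do not tell replicates 2 and 3 from each other, and blocked values stand beside results they change. The chains, gene lists and tests were chosen with earlier results of these data known. Named by rule were COL6A1, each expressed or called chain, and called list genes. Some chains below the minimum and some uncalled list genes, such as COL5A2, HSPA5 and SPARC, were named outside this rule with the results known. Promoter sequences are from RefSeq (GRCh38.p14). A lymphoid marker list is not reported here.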

Additional observations from a re-analysis of the deposited data

How the results depend on the processing

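In the MLL1 experiment 10 genes were called, against 232 with DESeq2, 6 with total counts, 32 with no filter beyond 1 count, 683 with the replicate block, 676 with the block and GC content offsets, 694 from replicates 2 and 3 alone, and 0 to 53 with each library left out. Collagen chains called there were 1 in the reported fit, 0 with total counts or a mean TPM of at least 5, 2 from replicates 2 and 3 alone (COL6A1 and COL2A1), and 0 to 1 with each library left out. COL6A1 was called only without MLL1 KD replicate 1 among those, and its log2 fold change was 1.89 or more in each. Genes called on the collagen-related lists were 0, against 2 with DESeq2, 3 with the block, 4 with the block and GC content offsets and 6 from replicates 2 and 3 alone. A mean CPM of at least 1 passed 14 chains in place of 9. In the AF9 experiment 1745 genes were called, against 3865 with no fold threshold, 511 at 2-fold or more, 1062 with GC content offsets and 1054 to 2002 with each library left out, lowest without control replicate 1. With GC content offsets 493 were higher and 569 lower, against 1070 and 675, and with total counts 1416 and 440. Chains called were 3, against 1 at a mean TPM of 5 or at 2-fold or more, and 1 to 3 with each library left out. List genes called were 10, against 6 with DESeq2, 21 with no fold threshold and 3 at 2-fold or more. A mean TPM of at least 5 passed 4 chains in place of 8. The cause of these differences was not tested.

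The AF9 replicate numbers are only 2 pairs, whose deviations correlated at 0.156, so these libraries share only a number. With the replicate block 1960 genes and 4 chains were called there, COL4A6 being the added chain (log2 0.66, edgeR adjusted p = 0.0172, between 0.011 and 0.546 over its alternatives).

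Among the expressed chains, directions turned for differences that were small in the reported fit. COL6A6 in the MLL1 experiment was 0.053 from replicates 2 and 3 alone and -0.36 to 0.15 with each library left out, above 0 without MLL1 KD replicate 1, and COL15A1 was -0.44 to 0.014, above 0 without control replicate 2. COL2A1 in the AF9 experiment was 0.082 with total counts, 0.021 at a mean TPM of 5 and -0.097 to 0.081 with each library left out. COL6A6 was there -0.045 to 1.20, and COL25A1 -0.008 with no filter beyond 1 count and -0.039 to 0.062 with each library left out. Chains with at most 3 counts allow no statement on change.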

Other observations

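Markers of blood lineages were present in both experiments. Erythroid markers summed to 1720 to 2190 CPM in the MLL1-experiment controls, 1350 to 1720 in MLL1 KD libraries, 11300 in both AF9-experiment controls and 7750 to 9720 in AF9 KD libraries. Most of the AF9-experiment sum came from HBG1, HBG2 and HBE1, with control means of 3113, 4845 and 1849 CPM. In that experiment 9 of the 13 were higher in both AF9 KD libraries than in both controls, beside 32.9% of genes tested. The other 4 were lower in both AF9 KD libraries than in both controls, beside 4428 of the 13350 genes tested. The median log2 fold change of the 13 was 0.37, and 0.06 with GC content offsets. Of the 13, HBA1 (log2 1.15) and HBA2 (1.22), the adult alpha globins, rose and HBG1 (-0.60) and HBG2 (-0.60), the fetal gamma globins, fell in AF9 KD by edgeR's quasi-likelihood test, and with GC content offsets HBA1 (0.43), HBA2 (0.52) and HBG1 (-0.54) no longer met the rule. The 2 higher and 2 lower in AF9 KD stand beside 8.01% and 5.06% of all genes. Of the 13, 0 were called in MLL1 KD without a block (0.0694% of all genes), against 6 lower with the block (4.74% of all genes called in either direction). HBA1 and HBA2 differ little in sequence, as do HBG1 and HBG2, so their counts are uncertain.

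Megakaryocyte markers summed to 1960 to 2290 CPM in the MLL1-experiment controls and 1190 to 1330 in the AF9-experiment controls. They summed to 1560 to 1940 CPM in MLL1 KD libraries and 1200 to 1490 in AF9 KD libraries. In either knockdown 0 of 6 expressed markers were called without a block. The shares of all genes called were 0.0694% in MLL1 KD and 13.1% in AF9 KD. With the block 1 megakaryocyte marker was higher and 1 lower in MLL1 KD, beside 4.74% of all genes. Endothelial markers summed to 736 to 885 CPM in the MLL1-experiment controls and 469 to 497 in the AF9-experiment controls. They summed to 835 to 1040 CPM in MLL1 KD libraries and 356 to 363 in AF9 KD libraries. KDR, 1 of 5 expressed markers, was lower in AF9 KD (log2 -1.15, SE 0.11). In MLL1 KD 0 of 5 were called, against 1 higher with the block. Fibroblast and stromal markers summed to 203 to 292 CPM in the MLL1 experiment and 84.4 to 116 in the AF9 experiment, with 0 of 3 expressed markers called in either.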
